A study of Mus musculus with 6 samples.

Results

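The 10 genes described here encode receptors, junction proteins and other surface or secreted products of endothelial cells, the cells that line blood vessels: Pecam1, Cdh5, Kdr, Flt1, Tek, Tie1, Emcn, Vwf, Eng and Cldn5. They were chosen by name, and each was found as 1 line of a deposited table of 23233 gene lines, 13430 of which the authors had tested. The table compares embryonic mouse guts of stage E10.5 homozygous for a null allele of Ret (3 samples) with wildtype guts of that stage (3 samples). The strain is given as C57BL/6J for both genotypes, and both are described as male. The labels name no other allele and no treatment, and do not say which part of Ret the null allele lacks or whether a sample was 1 embryo or a pool. The table gives for each genotype a single FPKM value, that is, fragments scaled to the length of the transcript and to the size of the library, and none per sample. No spread between samples can therefore be shown, and read depth is unknown.

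Endothelial cells arise from mesoderm and form the first vascular plexus of the gut before and while neural crest cells enter it. Their growth is driven by VEGF ligands acting on the receptor tyrosine kinases encoded by Kdr (VEGFR2) and Flt1 (VEGFR1), and their stability by angiopoietins acting on Tek (Tie2) with its relative Tie1. Cdh5 (VE-cadherin), Pecam1 and Cldn5 hold the cells together at their junctions, Eng is a co-receptor for BMP9 and BMP10, Emcn is a sialomucin of the cell surface and Vwf is the clotting glycoprotein that endothelium stores and secretes. Ret is the receptor for GDNF family ligands on neural crest cells and is not a defining endothelial gene.

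The 10 genes are spread over 8 mouse chromosomes, with Tek and Tie1 on chromosome 4 and Kdr and Flt1 on chromosome 5. In the authors' mm10 coordinates, raised by 1 base at the start, the lines for Tie1 (chr4:118471191-118489849), Vwf (chr6:125552948-125686679) and Cldn5 (chr16:18776847-18778262) have exactly the start and end of the RefSeq gene. The lines for Pecam1 (chr11:106654218-106715281), Cdh5 (chr8:104101625-104144502), Emcn (chr3:137341078-137431069), Tek (chr4:94739300-94874939), Kdr (chr5:75933270-75978428) and Flt1 (chr5:147562196-147725988) differ from it at 1 or both ends, by 2 to 644 bases. The line for Eng (chr2:32646595-32694175) runs 11506 bases past the end of the RefSeq gene and has the same span as the line for Fpgs, a protein-coding gene on the opposite strand that shares 61 bases with Eng in GENCODE. Cdh5 shares 4249 bases of its annotated span with the antisense gene Gm29682, a span that includes introns. The labels do not state that strand was kept, so reads from such partners cannot be told apart, and the values of Eng and Cdh5 carry that uncertainty.

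Promoter sequences were available in RefSeq (GRCm38.p6, the same build as mm10) for 7 of the 10 genes: Kdr, Flt1, Tek, Tie1, Emcn, Eng and Cldn5. Among the 7, Emcn, Tek and Kdr fell in Ret null gut, while Vwf, the gene that fell most, had no promoter sequence. The closest relatives of Tek and Kdr, Tie1 and Flt1, did not pass the test. A difference within either pair is not resolved, as given below. The promoter sequences of these 5 genes are printed here. Each runs 5′ to 3′ on the gene's own strand over 300 bases, 250 before the start of transcription and 50 from it on. For Kdr and Flt1 the whole window lies inside the span of the RefSeq gene, and for Tek most of it does. The start used for these genes is therefore not the outermost one. The windows are chr3:137340828-137341127 on the plus strand for Emcn, chr4:94739039-94739338 on the plus strand for Tek, chr5:75978406-75978705 on the minus strand for Kdr, chr4:118489800-118490099 on the minus strand for Tie1 and chr5:147725962-147726261 on the minus strand for Flt1. Capitals mark GGAA, the core that ETS family transcription factors bind, or TTCC, where it lies on the other strand.
Emcn promoter: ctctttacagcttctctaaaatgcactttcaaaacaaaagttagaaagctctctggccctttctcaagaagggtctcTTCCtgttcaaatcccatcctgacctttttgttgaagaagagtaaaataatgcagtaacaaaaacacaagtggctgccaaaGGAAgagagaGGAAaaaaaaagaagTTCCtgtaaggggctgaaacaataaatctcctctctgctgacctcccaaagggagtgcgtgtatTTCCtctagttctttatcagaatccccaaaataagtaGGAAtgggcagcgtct
Tek promoter: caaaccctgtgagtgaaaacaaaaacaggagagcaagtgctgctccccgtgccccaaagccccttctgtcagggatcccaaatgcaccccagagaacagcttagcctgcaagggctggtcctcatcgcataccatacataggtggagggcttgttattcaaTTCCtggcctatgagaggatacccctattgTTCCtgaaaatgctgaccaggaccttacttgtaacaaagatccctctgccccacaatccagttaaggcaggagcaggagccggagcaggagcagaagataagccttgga
Kdr promoter: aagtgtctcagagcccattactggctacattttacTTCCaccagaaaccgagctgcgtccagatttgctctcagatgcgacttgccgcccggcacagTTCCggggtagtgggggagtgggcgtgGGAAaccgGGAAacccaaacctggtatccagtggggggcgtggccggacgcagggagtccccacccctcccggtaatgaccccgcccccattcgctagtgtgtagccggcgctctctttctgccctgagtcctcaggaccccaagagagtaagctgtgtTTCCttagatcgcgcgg
Tie1 promoter: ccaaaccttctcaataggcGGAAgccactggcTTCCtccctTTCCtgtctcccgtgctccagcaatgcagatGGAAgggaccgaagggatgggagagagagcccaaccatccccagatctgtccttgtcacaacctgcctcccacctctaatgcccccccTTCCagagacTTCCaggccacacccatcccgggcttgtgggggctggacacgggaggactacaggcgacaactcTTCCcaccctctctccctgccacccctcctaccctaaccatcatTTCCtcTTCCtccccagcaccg
Flt1 promoter: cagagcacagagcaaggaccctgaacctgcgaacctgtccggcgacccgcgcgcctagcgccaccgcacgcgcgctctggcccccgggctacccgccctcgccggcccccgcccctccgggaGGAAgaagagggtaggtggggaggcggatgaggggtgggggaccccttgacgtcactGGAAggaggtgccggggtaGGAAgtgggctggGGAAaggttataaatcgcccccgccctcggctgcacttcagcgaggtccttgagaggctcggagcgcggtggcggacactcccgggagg

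The ETS core GGAA, searched on both strands, was present in 6 of the 7 promoters, with 9 matches in Tie1, 6 in Emcn, 5 in Kdr, 4 each in Flt1 and Eng, 2 in Tek and 0 in Cldn5. It is in 96% of all 32851 RefSeq promoter windows, with a median of 3 matches. The longer ETS match CAGGAA, which contains the core, lay in 4 of the 7 promoters (Emcn, Tek, Tie1 and Eng), against 30.6% of all windows. AACAGGAA, the letters of a paired FOX and ETS match that contains CAGGAA, lay in Emcn only, beginning 173 bases before the start on the opposite strand, and is in 2.65% of all windows. The Sox match AACAAT lay in Emcn and Tek, where the match in Tek overlaps an ETS core, against 10.7% of all windows. The GATA match AGATAA was in Tek only (11.2% of all windows), the ETS match CCGGAA in Kdr only (14.9%) and the TATA box letters TATAAA in Flt1 only, 31 bases before the start (13.6%). The promoter windows differ in base composition, with 41% G or C in Emcn and 70.7% in Flt1, against a median of 52.7% over all windows. These matches are letters in a window and were not tested against the expression values.

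Before the endothelial values, the labels were checked. Ret stood at 0.0354 FPKM in Ret null gut and 8.80 FPKM in wildtype gut, in the direction of the genotype. Xist, which coats and silences the inactive X of female cells, stood at 31.8 FPKM in Ret null gut and 0.136 FPKM in wildtype gut, which goes against the description of all embryos as male, while 4 Y-linked genes (Kdm5d, Eif2s3y, Uty and Ddx3y) were 1.64-fold to 1.99-fold lower in Ret null gut and not absent. With 1 value per genotype no library can be left out, so sex and genotype cannot be told apart in part of this comparison. None of the 10 genes lies on a sex chromosome, but Figf and Gata1, named below, lie on the X chromosome. Markers of other tissues also differed: 8 of 8 hepatocyte genes rose (311.7 FPKM summed in Ret null and 22.4 FPKM in wildtype), and 8 of 8 gut epithelium genes rose (268 FPKM in Ret null and 119.8 FPKM in wildtype). Of the gut mesenchyme genes 5 of 6 rose (474 FPKM in Ret null and 185 FPKM in wildtype). By contrast 7 of 7 tested somite and skeletal muscle genes fell (7.48 FPKM in Ret null and 80.9 FPKM in wildtype), as did 6 of 7 neural crest genes, Ret included (34.8 FPKM in Ret null and 80.4 FPKM in wildtype). Beside these counts, 8.88% of all tested genes fell and 5.69% rose. In none of these lists is a marker listed at 0 in either genotype. Their part in the endothelial values below was not tested.

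All 10 genes had values above 0 in both genotypes and carry the authors' status for a tested gene, so the markers of endothelium were present in the dissected guts. The levels ran from 3.48 to 36.2 FPKM in Ret null gut and from 3.58 to 37.6 FPKM in wildtype gut, and summed to 180 FPKM in Ret null gut and 216 FPKM in wildtype gut. Cdh5 and Pecam1 were the highest in both genotypes and Flt1 the lowest. In Ret null gut the order after Pecam1 was Cldn5, Emcn, Tie1, Eng, Kdr, Tek, Vwf and Flt1. In wildtype gut it was Emcn, Cldn5, Kdr, Tie1, Eng, Vwf, Tek and Flt1. Since no spread per genotype is given, neighbours in either order cannot be shown to differ.

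**Figure D1:**
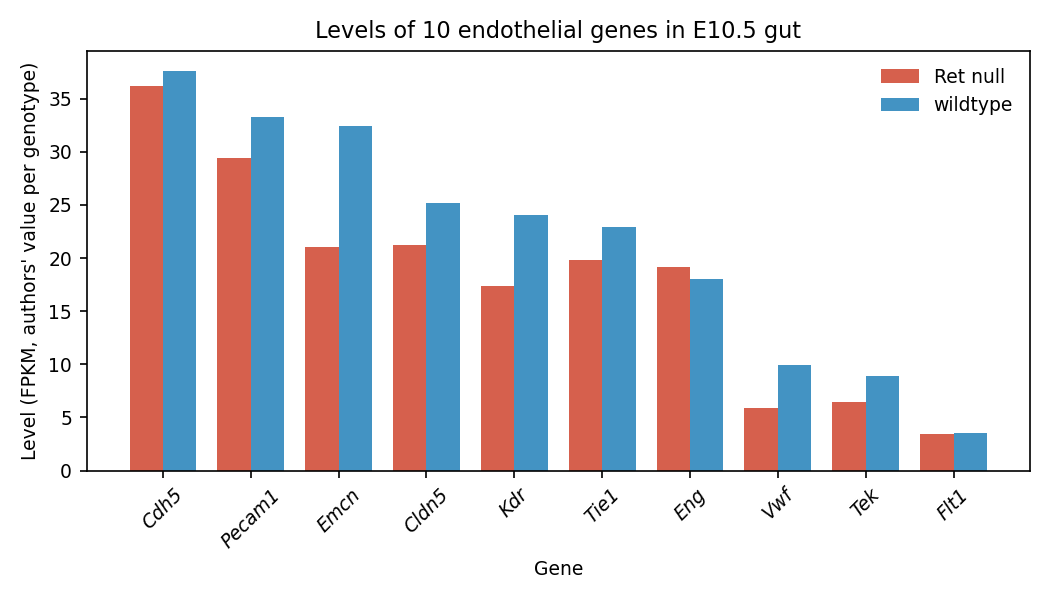
Bars show the authors' FPKM value for each of the 10 endothelial genes in Ret null and in wildtype gut, ordered by the wildtype value, with no error because the table holds 1 value per genotype. Emcn, Kdr, Vwf and Tek show the widest gaps relative to their level, while Cdh5 and Flt1 are nearly level between genotypes.

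The comparison asks how the endothelial genes differ between Ret null and wildtype gut. Vwf, Emcn, Tek and Kdr were lower in Ret null gut, with values that fell by 27.9% to 41%, and the other 6 genes did not pass the test; none rose. Genes are said to fall or rise only where the authors' deposited q-value, adjusted over all 13430 tested genes, was under 0.05. All 4 falls had q = 0.000775, the smallest that the authors' deposited table holds. It goes with a Cuffdiff p of 5e-05, which 867 tested genes share, so it does not rank these genes. The share of all tested genes that fell at q under 0.05 was 8.88%, and 5.69% rose, beside 4 falls and 0 rises among the 10. The log2 fold change was negative for 9 of the 10 genes, with a median of -0.23, against 0.01 over all tested genes, of which 48% were negative. These are genes chosen with earlier results known, so the count describes them and is no test of the group. In tissue RNA of this kind, fewer endothelial cells and less RNA per cell cannot be told apart.

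The call depends on how the p-value was obtained. Errors after ± are standard errors obtained by dividing each log2 fold change by the deposited Cuffdiff statistic, and the authors' p-values do not follow from them. A second p, called the normal p here, took the Cuffdiff statistic for a standard normal deviate, with Benjamini-Hochberg adjustment over the 13422 genes that have one. By the normal p 1 of the 10 genes was lower, Vwf, beside 2.78% of tested genes, and 0 were higher, beside 1.72%. The adjusted normal p of Vwf from the Cuffdiff statistic was 0.00513. Emcn, Kdr and Tek had an adjusted normal p of 0.0922, 0.139 and 0.294 from the Cuffdiff statistic. A minimum change of 1.5-fold left 2 of the falls, Vwf and Emcn, beside 5.2% of tested genes. At q under 0.01 in place of 0.05 the 4 genes were still called, beside 6.1% lower among all tested genes. Their shared q of 0.000775 fixed that in advance. At q under 0.1 no further gene of the 10 was called, beside 10.6%. Without adjustment, p under 0.05 in the authors' deposited table held for 5 of the 10 genes as lower (the 4 and Tie1), beside 13.5%, and for 0 as higher, beside 9.91%.

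Vwf and Emcn were the genes with the largest falls of the 10. Vwf stood at 5.85 FPKM in Ret null gut and 9.92 FPKM in wildtype gut, a log2 fold change of -0.76 ± 0.20, or 1.70-fold lower. Its product tethers platelets to damaged vessel wall and is also made by megakaryocytes. Emcn, enriched on veins and capillaries and also on early haematopoietic cells, stood at 21.0 FPKM in Ret null gut and 32.4 FPKM in wildtype gut, a log2 fold change of -0.62 ± 0.22, or 1.54-fold lower. Both also passed a minimum change of 1.5-fold, which Tek and Kdr did not. Since Vwf can come from megakaryocytes, a list of 12 megakaryocyte and platelet genes is given beside it. The list holds Vwf and Pecam1 themselves, and its other 8 tested genes summed to 50.9 FPKM in Ret null gut and 62.8 FPKM in wildtype gut. In these sums the line for Gp1bb also carries Sept5, so its value is not of Gp1bb alone. That line stood at 19.7 FPKM in Ret null gut and 20.9 FPKM in wildtype gut. Of these 8 genes 0 fell and 0 rose by the authors' Cuffdiff test, 2 were lower and 0 higher at an unadjusted p under 0.05 of the authors' deposited table, and 0 passed by the normal p. Their median log2 fold change was -0.33, and 6 of the 8 were negative. The platelet chemokine gene Pf4, named after its value was seen, stood at 13.7 FPKM in Ret null gut and 20.7 FPKM in wildtype gut and just missed the threshold (the authors' deposited table gives q = 0.0515), and no member of the list is listed at 0. How far such cells contribute to the Vwf value was not tested.

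The VEGF receptors differed in their values. Kdr, the main signalling receptor for VEGF-A, stood at 17.4 FPKM in Ret null gut and 24.1 FPKM in wildtype gut, a log2 fold change of -0.47 ± 0.18. Flt1, which binds VEGF-A tightly with weak kinase activity and also gives a soluble form that acts as a decoy, stood at 3.48 FPKM in Ret null gut and 3.58 FPKM in wildtype gut. Its log2 fold change was -0.04 ± 0.24, with a 95% interval from its error of -0.51 to 0.43, which includes the value of Kdr (the authors' deposited table gives q = 0.936). The ratio of Flt1 to Kdr was 0.201 in Ret null gut and 0.149 in wildtype gut, a difference of 0.43 ± 0.30 on the log2 scale, so a difference between the receptors is not resolved. The table holds 1 line for Flt1, so its soluble and membrane forms are summed there.

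Of the 5 VEGF receptors and co-receptors, Kdr fell, Nrp2 rose and 3 did not pass. The shares over all tested genes were 8.88% that fell and 5.69% that rose. Nrp2, a co-receptor for VEGF-C that is expressed on veins and on many non-vascular cells, stood at 59.9 FPKM in Ret null gut and 42.9 FPKM in wildtype gut (log2 fold change 0.48 ± 0.18; the authors' deposited table gives q = 0.000775). Among the 5 ligands 1 fell, 1 rose and 3 did not pass. Vegfa, the ligand of Kdr and Flt1, stood at 51.2 FPKM in Ret null gut and 52.7 FPKM in wildtype gut (-0.04 ± 0.18). Figf, which encodes VEGF-D, fell to 3.20 FPKM in Ret null gut, against 5.79 FPKM in wildtype gut (the authors' deposited table gives q = 0.00468). Pgf, which encodes placental growth factor, a ligand of Flt1, was 9.71 FPKM in Ret null gut and 6.68 FPKM in wildtype gut and rose (0.54 ± 0.33; the authors' deposited table gives q = 0.0325). Vegfb and Vegfc, at log2 fold changes of 0.33 and 0.23, did not pass. None of the ligand or receptor calls held with the normal p.

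In the angiopoietin and Tie pathway all 7 tested genes had negative log2 fold changes, with a median of -0.47, and 3 of them fell, including Tek. Over all tested genes 48% were negative and 8.88% fell. Tek stood at 6.42 FPKM in Ret null gut and 8.91 FPKM in wildtype gut, a log2 fold change of -0.47 ± 0.21. Tie1, which pairs with Tek and modulates its signalling, stood at 19.8 FPKM in Ret null gut and 22.9 FPKM in wildtype gut. Its log2 fold change was -0.21 ± 0.18 with a 95% interval of -0.57 to 0.15, and it did not pass (the authors' deposited table gives p = 0.0485 and q = 0.209). The ratio of Tie1 to Tek was 3.09 in Ret null gut and 2.58 in wildtype gut, a difference of 0.26 ± 0.28 on the log2 scale, within its error. Angpt1, the activating ligand of Tek made mainly by perivascular and mesenchymal cells, fell to 6.41 FPKM in Ret null gut, against 9.80 FPKM in wildtype gut (-0.61 ± 0.21). Ptprb, the endothelial phosphatase VE-PTP that acts on Tek and on VE-cadherin complexes, fell to 2.05 FPKM in Ret null gut, against 3.46 FPKM in wildtype gut (-0.75 ± 0.22). The authors' deposited table gives q = 0.000775 for Angpt1 and Ptprb alike. By the normal p 1 of the 7 genes was lower, beside 2.78% of tested genes. Angpt2, the context-dependent antagonist, had a similar log2 fold change with a wide error (-0.62 ± 0.85; the authors' deposited table gives q = 0.544), and Angpt4 stood at -0.26 ± 0.55.

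The 3 junction genes among the 10 did not pass. Cdh5, the cadherin that defines endothelial adherens junctions, stood at 36.2 FPKM in Ret null gut and 37.6 FPKM in wildtype gut. Its log2 fold change was -0.05 ± 0.18, with a 95% interval of -0.40 to 0.29 (the authors' deposited table gives q = 0.853). Pecam1, an adhesion molecule of endothelium, platelets and leukocytes, stood at 29.4 FPKM in Ret null gut and 33.3 FPKM in wildtype gut, with -0.18 ± 0.19 and an interval of -0.55 to 0.19. Cldn5, the main endothelial tight junction claudin, stood at 21.3 FPKM in Ret null gut and 25.2 FPKM in wildtype gut, with -0.25 ± 0.19 and an interval of -0.62 to 0.13. These intervals reach the point values of Kdr and Tek in the case of Pecam1 and Cldn5, and stop short of them for Cdh5. The errors of Kdr and Tek are left out of that comparison, so a difference between Cdh5 and either gene is not shown. The ratio of Cldn5 to Cdh5 was 0.587 in Ret null gut and 0.670 in wildtype gut, a difference of -0.19 ± 0.26 on the log2 scale. Over all tested genes 8.88% fell and 5.69% rose. Across the wider list of 19 junction and adhesion genes 2 fell, 0 rose and 17 did not pass. The falls were Gja5 (connexin 40, of arterial gap junctions) at -0.47 ± 0.21 and Jam2 at -0.72 ± 0.31, for which the authors' deposited table gives q = 0.00145 and 0.0042. By an unadjusted p under 0.05 of the authors' deposited table, the list held 4 lower genes and 0 higher ones. The shares over all tested genes were 13.5% and 9.91%. By the normal p 0 were lower and 0 higher, beside 2.78% and 1.72%. Several members of this list, among them the catenin genes, are expressed by most cells of the gut.

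Eng was the only gene of the 10 with a positive log2 fold change, and it did not pass. It stood at 19.1 FPKM in Ret null gut and 18.0 FPKM in wildtype gut (0.09 ± 0.26, 95% interval -0.42 to 0.59; the authors' deposited table gives q = 0.837). Its error was the widest of the 10, and its line shares a span with Fpgs, as given above. Over all tested genes 8.88% fell and 5.69% rose. Among 11 tested genes of the endoglin and ALK1 pathway 4 fell and 0 rose, with a median of -0.02. The falls were the type 2 receptors Bmpr2 (-1.37 ± 0.26) and Acvr2b (-0.58 ± 0.30), the signal transducer Smad5 (-0.37 ± 0.18) and the target gene Id3 (-0.29 ± 0.15). The authors' deposited table gives q = 0.000775 for Bmpr2, 0.019 for Acvr2b, 0.00566 for Smad5 and 0.0341 for Id3. By the normal p, 1 of the 11 was lower, beside 2.78% of tested genes. These 4 genes are expressed far beyond endothelium. Gdf2, which encodes the Eng ligand BMP9 and is made mainly by the liver, was named after its value was seen. It stood at 1.25 FPKM in Ret null gut and 0.0389 FPKM in wildtype gut (log2 fold change 5.0 ± 1.73) and did not pass (the authors' deposited table gives p = 0.0183 and q = 0.104).

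**Figure D2:**
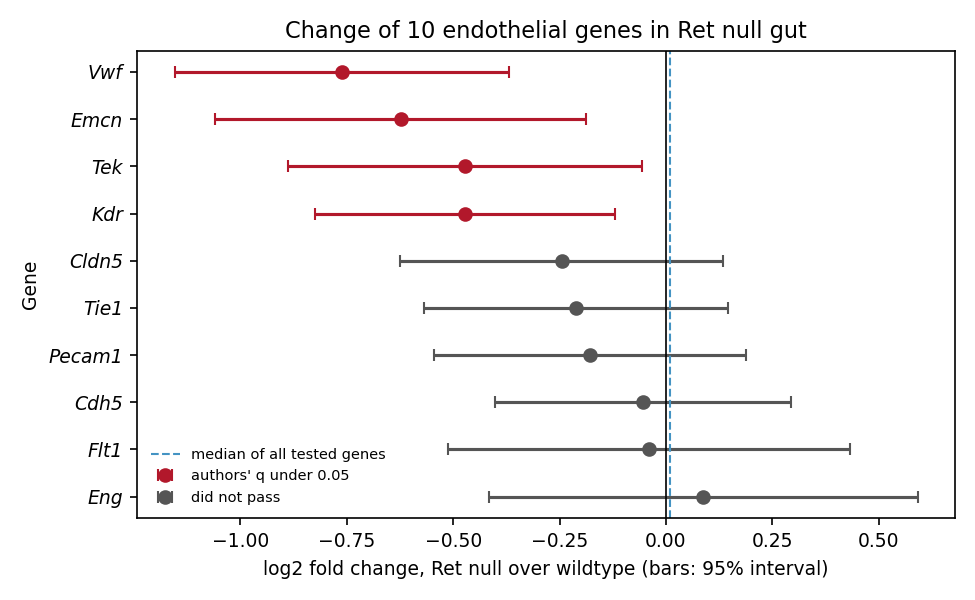
Points show the log2 fold change of each of the 10 genes, Ret null over wildtype, with bars for the 95% interval from the error implied by the authors' test statistic; colour marks the authors' call and the dashed line the median of all tested genes (0.01). Vwf, Emcn, Tek and Kdr have intervals wholly below 0, and the intervals of the other 6 genes cross it.

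Each gene was also set against the geometric mean of the other 9 genes in the same genotype. By that measure the log2 difference between genotypes ran from -0.52 for Vwf to 0.43 for Eng. Vwf stood at 0.365 times that mean in Ret null gut and 0.522 times in wildtype gut. Eng stood at 1.36 times it in Ret null gut and 1.01 times in wildtype gut. Cldn5 and Tie1 differed least between genotypes by this measure, at 0.06 and 0.10. The standard deviation of the 10 log2 fold changes was 0.28, beside a median implied error of 0.20. Whether the 10 genes share 1 common change was not tested.

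**Figure D3:**
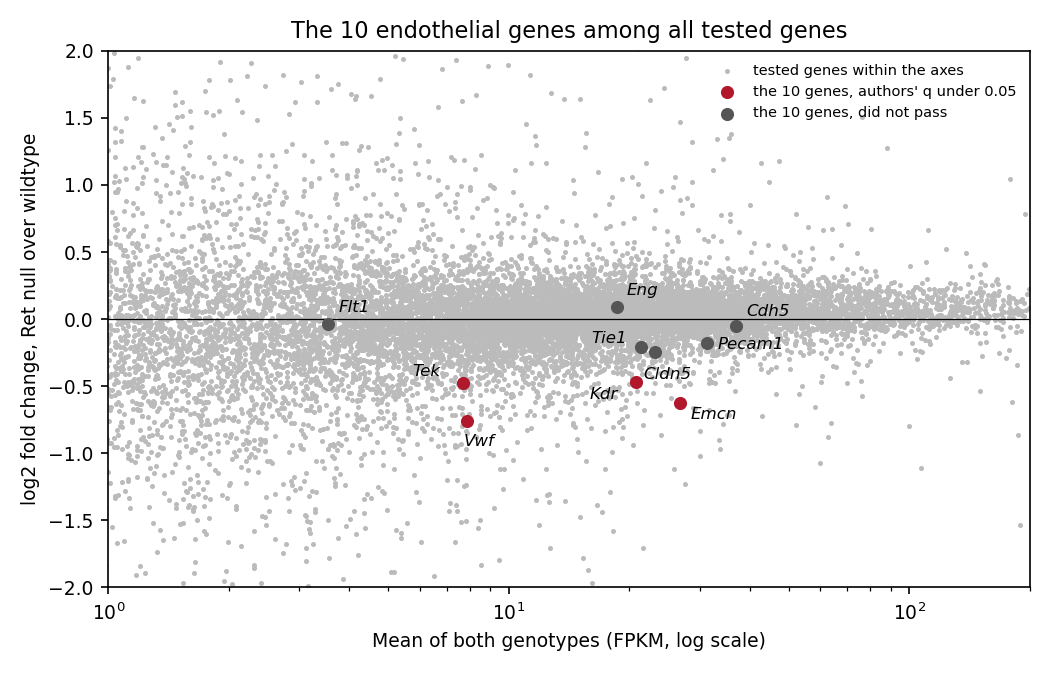
Each grey point is a gene tested by the authors, placed by its mean FPKM over both genotypes (log scale) and its log2 fold change, Ret null over wildtype; genes beyond the axes are not drawn. The 10 endothelial genes lie between 3.53 and 36.9 FPKM, and those called lower (Vwf, Emcn, Tek and Kdr) lie below the 6 that did not pass.

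The levels bear on how often a gene is called. Of tested genes with a mean of 10 to 40 FPKM, where 7 of the 10 genes lie, 5.89% fell, and of those from 2 to 10 FPKM, where Tek, Vwf and Flt1 lie, 13.1% fell. Of the 10 genes, 2 of 7 fell in the upper band (Emcn and Kdr) and 2 of 3 in the lower (Tek and Vwf).

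The 11 vascular lists, joined with the 10 genes left out, gave 109 tested genes, which include ligands, signal transducers and junction genes expressed outside endothelium. Of these 21 fell, 9 rose and 79 did not pass, 69 had negative log2 fold changes and the median was -0.12. Over all 13430 tested genes 8.88% fell, 5.69% rose and 48% had negative log2 fold changes, with a median of 0.01. The joined lists were chosen with earlier results known, so these counts are no test of the group. Of 29 tested endothelial surface and secreted genes, Vwf and Emcn included, 7 fell and 2 rose (median -0.18). Besides Vwf and Emcn, Gpr116 fell to 5.33 FPKM in Ret null gut, against 7.24 FPKM in wildtype gut, and Mmrn1, which encodes a multimerin, fell to 2.62 FPKM in Ret null gut, against 3.99 FPKM in wildtype gut (the authors' deposited table gives q = 0.00318 and 0.00658). The rises, named after their values were seen, were Esm1, a marker of sprouting tip cells, at 1.86 FPKM in Ret null gut and 0.929 FPKM in wildtype gut, and Thbd, which encodes thrombomodulin, at 10.2 FPKM in Ret null gut and 8.04 FPKM in wildtype gut (the authors' deposited table gives q = 0.0288 and 0.0472). With the normal p 1 gene of this list was lower, Vwf, and 0 were higher, beside 2.78% and 1.72% of tested genes.

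Among 19 tested endothelial transcription factors 4 fell, 3 rose and 12 did not pass (median 0.04). The shares over all tested genes were 8.88% that fell and 5.69% that rose, and 2.78% lower by the normal p. Foxc1, Foxc2, Mef2c and Gata2 fell, at -0.97, -0.94, -0.84 and -0.63 on the log2 scale, each with the smallest q of the authors' deposited table, and 3 of the list were lower by the normal p. Foxc1 and Foxc2 are also expressed in somites and nephric mesoderm and Mef2c in muscle. Somite and muscle genes fell in the same comparison, as given above, and whether that bears on these 4 falls was not tested. The rises, named after their values were seen, were Hhex (0.65), Klf4 (0.43) and Ets2 (0.33). The 12 that did not pass ran from -0.36 (Fli1) to 0.32 (Lmo2) on the log2 scale, both named after their values were seen. Etv2, an early endothelial factor that is off in later vessels and is also named after its value was seen, is listed at 0 in Ret null gut and at 0.195 FPKM in wildtype gut and was not tested.

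Subtypes of vessel gave calls in both directions. Of 15 arterial genes 3 fell and 1 rose. The falls were Gja5, Hey2 (-0.50 ± 0.25) and Unc5b (-0.30 ± 0.18), where the authors' deposited table gives q = 0.0121 for Hey2 and 0.0309 for Unc5b. Efnb2, the arterial ephrin that is also expressed in mesenchyme, was 48.9 FPKM in Ret null gut and 33.1 FPKM in wildtype gut and rose (0.56 ± 0.17). By the normal p 0 arterial genes were lower and 1 was higher, Efnb2. Of 6 venous genes 2 fell (Emcn and Aplnr) and 1 rose (Nrp2), and Aplnr, the apelin receptor, had a log2 fold change of -0.30 ± 0.17 (the authors' deposited table gives q = 0.0387); by the normal p 0 venous genes were lower and 0 higher. Of 7 lymphatic genes 2 fell, Foxc2 and the integrin gene Itga9 (-0.31 ± 0.19; the authors' deposited table gives q = 0.0245), and 0 rose; by the normal p 1 was lower, Foxc2. Of 8 tested endocardial and sinusoidal genes 0 fell and 1 rose, Oit3, which marks liver sinusoids, at 1.51 FPKM in Ret null gut and 0.694 FPKM in wildtype gut (1.12 ± 0.52; the authors' deposited table gives q = 0.0121). In this last list 0 were lower by an unadjusted p under 0.05 of the authors' deposited table, and the normal p called none in either direction.

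**Figure D4:**
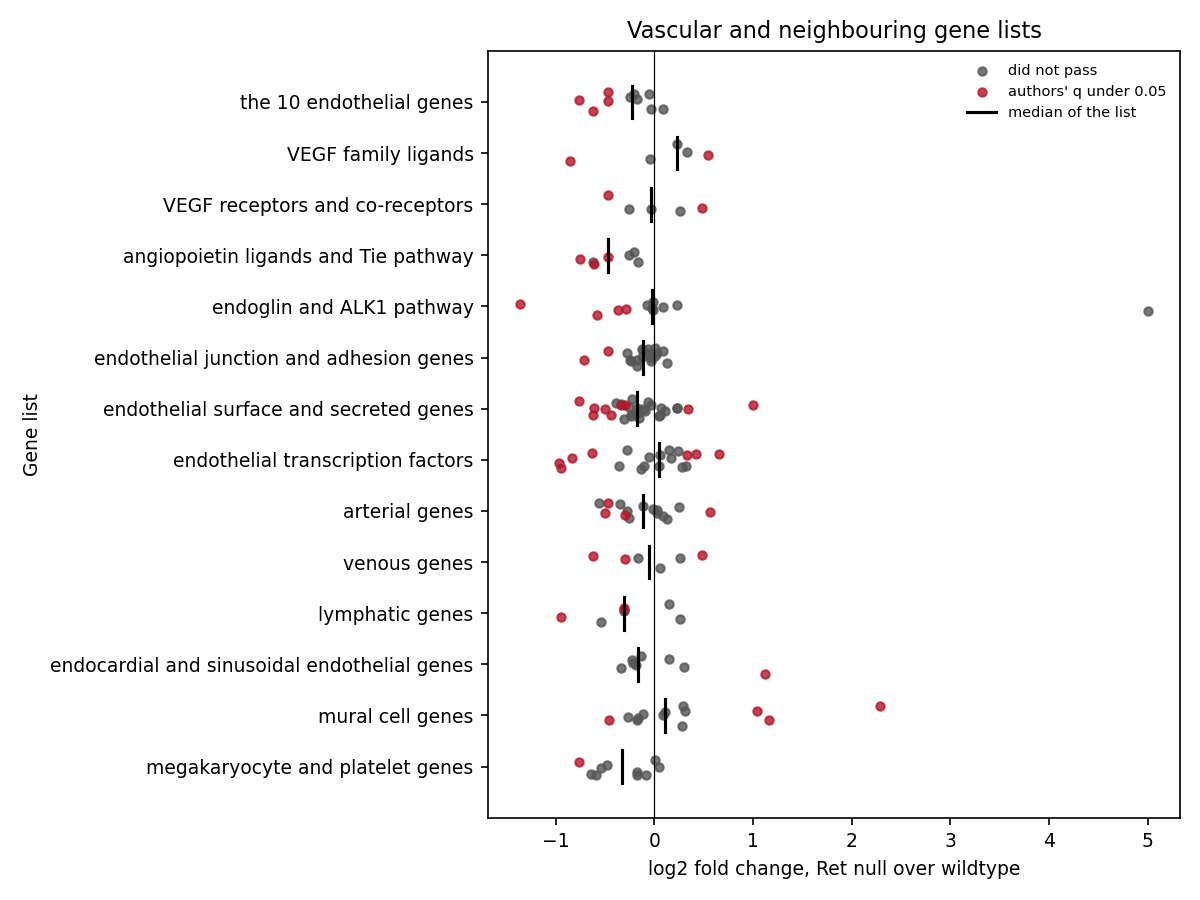
Each point is a tested gene of a list, placed by its log2 fold change, Ret null over wildtype; red points passed the authors' q under 0.05 and the black tick is the median of the list. The angiopoietin and Tie list lies wholly below 0, and the other vascular lists hold points on both sides of 0.

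Cells that surround or fill the vessels were read from their own lists. For comparison, 8.88% of all tested genes fell and 5.69% rose. By the normal p 2.78% were lower and 1.72% higher. An unadjusted p under 0.05 of the authors' deposited table held for 13.5% as lower and 9.91% as higher. Of 13 mural cell genes, of the pericytes and smooth muscle around vessels, 1 fell and 3 rose. Vtn, Kcnj8 and Acta2 rose (2.28, 1.16 and 1.04 on the log2 scale) and Des fell (-0.46), and the authors' deposited table gives q = 0.00206 for Des and 0.000775 for the others. Vtn is also a hepatocyte product and Acta2 a gene of gut smooth muscle, and the pericyte receptor gene Pdgfrb, named after its value was seen, stood at 34.8 FPKM in Ret null gut and 39.2 FPKM in wildtype gut and did not pass. By the normal p 0 mural genes were lower and 3 higher. Of 11 tested erythroid lines 3 fell and 4 rose; by the normal p these were 2 and 2. The embryonic globin genes Hbb-bh1 and Hba-x fell to 96.8 and 627 FPKM in Ret null gut, against 280.8 and 1408 FPKM in wildtype gut, while Gata1 rose 3.44-fold. Of 11 tested haematopoietic and leukocyte genes 0 fell and 2 rose, Kit and Myb (0.42 and 0.64), with 0 lower by an unadjusted p under 0.05 of the authors' deposited table and 0 passing by the normal p. Among 5 germ cell genes, cells that can carry Pecam1, 0 fell and 0 rose by the authors' Cuffdiff test, with 0 lower and 1 higher at an unadjusted p under 0.05 and 0 with the normal p; Dppa3 and Pou5f1 stood at 2.82 and 2.64 FPKM in Ret null gut and 3.44 and 2.99 FPKM in wildtype gut.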

How the data were processed

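Per the labels' protocols, RNA of dissected guts was selected with oligo dT and sequenced from Illumina TruSeq libraries. The submitters' processing notes list the build mm10 and, with no version, Picard, TopHat2, Cufflinks and Cuffdiff. The single deposited table is a Cuffdiff output with 1 line per gene. Its FPKM values, 1 per genotype, were made by the authors from 3 samples each, and the columns name the genotypes by a letter (w and h), read as wildtype and homozygous null. The test statistic, a score, and the p-value and q-value are the authors' deposited results. The q-values equal a Benjamini-Hochberg adjustment over tested lines to within 5.94e-05. One line with records run together was not used. The authors' status column marks 9802 lines as not tested, by a limit not given in the sources used here.

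Log2 fold changes (Ret null over wildtype) were computed from the FPKM values with Python 3.11.15, numpy 2.4.6, pandas 2.3.3 and scipy 1.17.1, with no pseudocount. No test over samples was possible, so the planned call was the authors' q under 0.05, and nothing in the labels shows that samples came from separate litters. The 10 genes and 22 context lists were chosen with earlier results of these data known. Of 220 listed genes 217 were matched, by symbol or RefSeq synonym. Named were the 10 genes, at most 4 called genes of a list, ordered by q and next by size of change (with none called, the 2 with the highest mean), and all VEGF and angiopoietin ligands; others are said to be named after their values were seen.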

Additional observations from a re-analysis of the deposited data

How the results depend on the processing

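The number of the 10 endothelial genes called lower, 4 in the authors' test, was 1 by the normal p and 2 with a minimum change of 1.5-fold. It stayed at 4 with q under 0.01 or 0.1 and with a minimum of 1 or 5 FPKM. These settings could hardly have removed the 4 genes, since each had q = 0.000775 and stood above 5 FPKM in both genotypes. The context lists hold the 10 genes themselves and the markers of other tissues described above. Of the 217 matched genes of these lists, some of which were not tested, 46 were lower and 40 higher, beside 8.88% and 5.69% of all tested genes. With the normal p 24 were lower and 26 higher, beside 2.78% and 1.72%. With the 1.5-fold minimum 30 were lower, beside 5.2%, and 32 were higher, for which the share of all tested genes was not computed. The median log2 fold change of the 10 genes, and that of each gene, moved by less than the implied error when 1 or 0.1 FPKM was added, when the median of tested genes was set to 0 and when the upper quartiles were made equal, a shift of 0.04 on the log2 scale. The direction of the 4 called genes was bound to stay the same under these settings. The same FPKM was added in both genotypes, and the shifts were smaller than the changes. No paired analysis was possible because the table gives 1 value per genotype, and for the same reason no replicate could be left out. The implied standard errors of these genes were 0.18 to 0.26 on the log2 scale, and changes smaller than these are not resolved. A change larger than its standard error need not be resolved either. The intervals given above for the log2 fold changes of Cldn5 (-0.25 ± 0.19) and Tie1 (-0.21 ± 0.18), Ret null over wildtype, include 0.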
